A study of Drosophila melanogaster with 23 samples.

Results

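Antimicrobial peptide genes encode small secreted peptides that kill bacteria and fungi, and 10 of them are described here in heads of adult Drosophila: the attacins AttA, AttB and AttC, the cecropins CecA1, CecA2 and CecC, the diptericins DptA and DptB, drosocin (Dro) and defensin (Def). The members were taken by their FlyBase symbols. All 10 were found by gene identifier among the 17559 genes listed for wild type and the single heterozygotes and among the 12623 genes listed for the double heterozygote. Wild type (WT) flies of the w1118 stock were compared with flies heterozygous for a mutation in the fly ortholog of an autism-associated gene: ASH1L/+ (ash1, the ash1-mimic insertion), WDFY3/+ (bchs, allele bchs58), CHD2/+ (Chd1, allele chd1[1]) and CHD8/+ (kis, allele kis1). A sixth group, CHD8/+; PP2R5D/+ (kis and wrd, wrd104), carried a mutation in 2 genes. Heads were taken 5 to 7 days after pupation, from stocks on standard food at 25°C, and no infection or wounding is named for any group. The 5 groups of the main comparison had 4 biological replicates each and the double heterozygote had 3 libraries, whose separation into cultures is not stated. Each mutant is 1 allele in 1 stock, so mutation and stock cannot be told apart.

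In flies, bacterial peptidoglycan is sensed by receptors of the Imd pathway, whose NF-κB factor Relish switches on the diptericin, attacin, cecropin and drosocin genes. The Toll pathway, with the NF-κB factors Dif and dorsal, responds to fungi and to many Gram-positive bacteria and induces other peptides, and defensin responds to both pathways. The fat body, the counterpart of the liver, which also forms a layer around the brain in the head, is the main source of these peptides, and haemocytes, barrier epithelia and glia can express them too. In RNA of whole heads, fewer cells of a type and less RNA per cell cannot be told apart.

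The deposited values are normalized counts, which are estimated read counts divided by factors for library size. They summed to 3.98 to 8.56 M per library in the 20 libraries of WT and the single heterozygotes (median 4.82 M). The depth behind them, estimated from the commonest step among low values, was 2.81 to 9.78 M reads (median 4.71 M), so that 3 reads, the least taken here as a detection, were worth 1.90 to 5.83 normalized counts. The paper reports a higher median of mapped reads per sample than this estimate, and the reason for the difference was not tested. Neuron markers (5 of 5 measured) summed to 3859 to 16215 and photoreceptor markers (5 of 5 measured) to 38139 to 79220 normalized counts per library, as the label of head tissue requires. The mutated gene was not called in its own mutant: Chd1 ranged from 99.8 to 204 normalized counts in CHD2/+ against 167 to 402 in WT, with an adjusted p of 0.66 from limma. The change was -0.58 for ash1, 0.17 for bchs and -0.22 for kis on the log2 scale (adjusted p = 1.00 from limma). Reads from the 3′ end of a transcript do not show a lesion elsewhere in the gene.

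Several members lie side by side in the genome (BDGP6 coordinates of the annotation). On chromosome arm 2R, Dro (14745961 to 14746714), AttA (14747362 to 14748215) and AttB (14749223 to 14750165) stand in a row with gaps of 647 and 1007 bases. DptA (18865765 to 18866260) and DptB (18867391 to 18867895) are neighbours on 2R, 1130 bases apart. AttC (13393705 to 13394667) and Def (10054178 to 10054576) lie alone on 2R. CecA1 (30210874 to 30211273), CecA2 (30212156 to 30212568) and CecC (30216484 to 30216938) share a cluster on 3R, with gaps of 882 and 3915 bases. All but Def are on the plus strand. AttA and AttB, and likewise CecA1 and CecA2, are closely similar copies, so reads may have been divided between the members of these pairs and their single values are uncertain.

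The main pattern in these genes was a wide spread between libraries of the same genotype that the members shared. The summed share of the 10 members, in parts per 1000000 of the library total (ppm), was 374, 732, 732 and 68.0 ppm in WT replicates 1 to 4. It was 2068, 569, 86.8 and 26.3 ppm in ASH1L/+ and 259, 131, 42.4 and 46.3 ppm in WDFY3/+. It was 1955, 1134, 1144 and 465 ppm in CHD2/+ and 269.8, 789, 649 and 402 ppm in CHD8/+. ASH1L/+ held the highest and the lowest library of all 20. The libraries of WDFY3/+ lay low, those of CHD2/+ lay high, and each genotype overlapped WT.

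**Figure D1:**
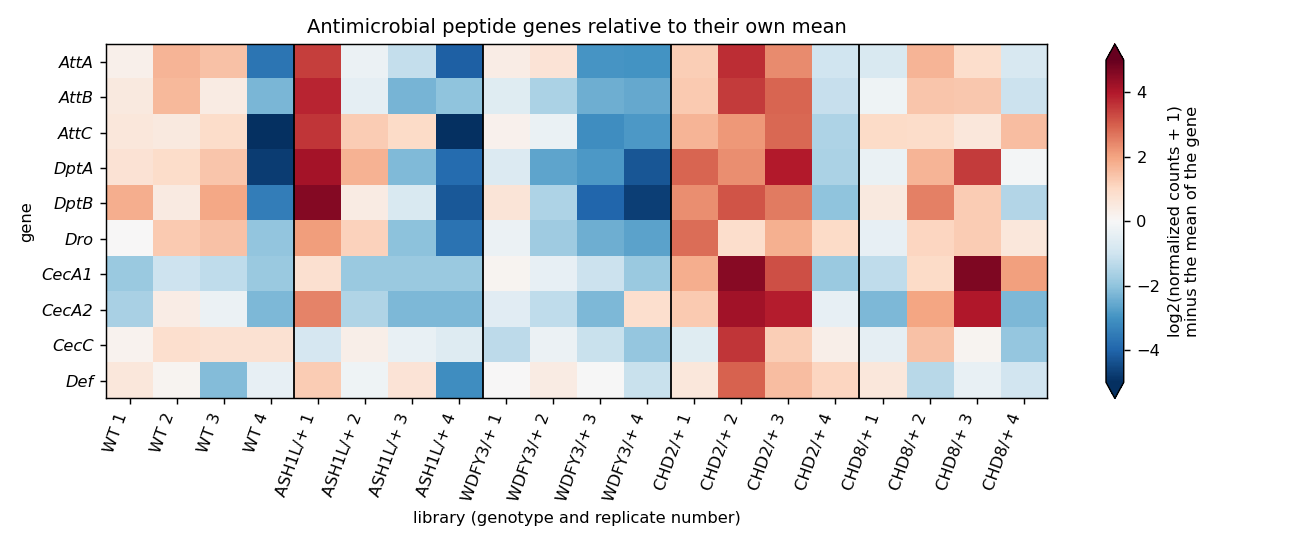
Level of each of the 10 genes (vertical axis) in each of the 20 libraries (horizontal axis, genotype and replicate number), as log2(normalized counts + 1) minus the mean of that gene over the libraries; the colour scale ends at ±5 and the lowest value, -5.53 for AttC, lies past it. Most genes of a column can share one colour, such as in ASH1L/+ replicate 1 (high) and replicate 4 of WT and of ASH1L/+ (low). CecC goes the other way in ASH1L/+ replicate 1 and in WT replicate 4.

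Attacins are glycine-rich peptides that act mainly on Gram-negative bacteria. AttA stood at 65.2, 179, 153 and 3.45 normalized counts in WT replicates 1 to 4, at 615, 44.7, 23.4 and 2.35 in ASH1L/+, at 70.7, 88.3, 6.16 and 6.12 in WDFY3/+, at 129.7, 719, 286 and 26.8 in CHD2/+, and at 32.4, 183, 101 and 31.2 in CHD8/+. Replicate 4 was the lowest library in every genotype, and all genotypes overlapped. Its log2 fold changes against WT, in the order ASH1L/+, WDFY3/+, CHD2/+ and CHD8/+, were -0.46, -1.16, 1.63 and 0.33 (standard error 1.39). AttB, its neighbour, stood at 184, 410.3, 178 and 26.4 normalized counts in WT, at 1876, 96.4, 25.3 and 31.6 in ASH1L/+, at 86.6, 43.0, 23.8 and 21.4 in WDFY3/+, at 330.3, 1523, 996 and 58.8 in CHD2/+, and at 112, 346, 335 and 63.0 in CHD8/+. ASH1L/+ had 1 of 4 libraries above the WT range and CHD2/+ had 2. Below it lay 2 of the 4 WDFY3/+ libraries and, narrowly, ASH1L/+ replicate 3 (25.3 against 26.4). Its log2 fold changes were -0.31, -1.86, 1.58 and 0.29 in the same order (standard error 1.16).

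AttC stood at 308, 291, 394 and 4.06 normalized counts in WT replicates 1 to 4, at 2465, 496, 407 and 3.51 in ASH1L/+, at 242, 164, 22.9 and 27.5 in WDFY3/+, at 671, 942, 1535 and 71.3 in CHD2/+, and at 402, 396, 307 and 611 in CHD8/+. In CHD8/+ AttC varied least, within 1.99-fold, and its replicate 4 was the highest library there. The WDFY3/+ libraries all lay below those of CHD8/+ and below 3 of the 4 WT libraries. Its log2 fold changes in that order were 0.91, -0.68, 2.15 and 1.85 (standard error 1.54).

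Diptericins act on Gram-negative bacteria, and single diptericins are known to protect flies from particular species, DptA from Providencia rettgeri and DptB from Acetobacter. DptA stood at 82.9, 93.6, 129.7 and 0.86 normalized counts in WT replicates 1 to 4, at 889, 165, 9.78 and 2.45 in ASH1L/+, at 30.6, 7.03, 5.95 and 1.57 in WDFY3/+, at 379.5, 253, 775 and 16.0 in CHD2/+, and at 38.8, 164, 561 and 46.6 in CHD8/+. Every WDFY3/+ library lay below 3 of the 4 WT libraries and below every CHD8/+ library. Its log2 fold changes, again in the order ASH1L/+, WDFY3/+, CHD2/+ and CHD8/+, were 0.38, -2.18, 2.34 and 1.63 (standard error 1.59). DptB stood at 238, 90.1, 253 and 5.08 normalized counts in WT, at 1604, 88.5, 39.1 and 2.52 in ASH1L/+, at 105, 21.9, 3.31 and 1.6 in WDFY3/+, at 335, 594, 401 and 15.6 in CHD2/+, and at 94, 381, 160.4 and 23.2 in CHD8/+. DptB had its lowest library in replicate 4 in all 5 genotypes. Its log2 fold changes were -0.18, -2.57, 1.33 and 0.52 in the same order (standard error 1.61).

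Drosocin is a proline-rich peptide active against Gram-negative bacteria. Dro stood at 861, 2114, 2363 and 215 normalized counts in WT replicates 1 to 4, at 3635, 1917, 205 and 64.8 in ASH1L/+, at 709, 252, 158 and 133 in WDFY3/+, at 5887, 1590.0, 2941 and 1645 in CHD2/+, and at 644, 1813, 2072 and 1265 in CHD8/+. Each WDFY3/+ library lay below each CHD2/+ library, and 3 of the 4 WDFY3/+ libraries lay below every CHD8/+ library and below 3 of the 4 WT libraries. For Dro the log2 fold changes in that order were -0.82, -1.98, 1.40 and 0.43 (standard error 0.98).

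Cecropins are helical peptides that break bacterial membranes. CecA1 stood at 0, 0.78, 0.51 and 0 normalized counts in WT replicates 1 to 4, at 5.32, 0, 0 and 0 in ASH1L/+, at 3.0, 1.74, 0.75 and 0 in WDFY3/+, at 12.0, 85.7, 32.9 and 0 in CHD2/+, and at 0.53, 6.09, 92.4 and 14.2 in CHD8/+. No WT library reached 3 reads, against 1 of 4 in ASH1L/+, 1 of 4 in WDFY3/+, 3 of 4 in CHD2/+ and 3 of 4 in CHD8/+. The groups overlapped through a CHD2/+ library at 0 and a CHD8/+ library at 0.53. The fitted log2 fold changes of 3.45 in CHD2/+ (standard error 1.23) and 3.12 in CHD8/+ depend on the 1 added before the logarithm and are no bound. CecA2 stood at 0.52, 5.15, 2.88 and 0 normalized counts in WT, at 25.3, 0.66, 0 and 0 in ASH1L/+, at 2.19, 0.96, 0 and 7.41 in WDFY3/+, at 10.8, 86.7, 71.2 and 2.59 in CHD2/+, and at 0, 17.6, 75.1 and 0 in CHD8/+. The level of 3 reads was exceeded in 1 library each of WT, ASH1L/+ and WDFY3/+, in 3 CHD2/+ libraries and in 2 CHD8/+ libraries. Its log2 fold changes were 3.21 in CHD2/+ and 1.32 in CHD8/+ (standard error 1.39).

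CecC stood at 3.25, 5.77, 5.37 and 5.51 normalized counts in WT replicates 1 to 4, at 1.12, 3.63, 1.98 and 1.40 in ASH1L/+, at 0.54, 2.14, 0.76 and 0 in WDFY3/+, at 1.49, 43.7, 8.02 and 3.61 in CHD2/+, and at 1.77, 9.50, 3.23 and 0 in CHD8/+. The 4 WDFY3/+ libraries all lay below the 4 WT libraries, at the level of 3 reads or under, and 0.949% of the genes tested lay wholly below WT in WDFY3/+. CecC was the only member left out of the tests by the filter, which asked for 10 normalized counts or more in 4 or more libraries, since only CHD2/+ replicate 2 reached 10. CecA1 reached 10 in 5 libraries and CecA2 in 6, of which 3 were CHD2/+ and 2 were CHD8/+ in each case. CecA1 thus entered the tests only, and CecA2 mainly, through the groups in which they were high.

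Defensin is a peptide held together by disulphide bonds that acts mainly on Gram-positive bacteria. Def stood at 28.4, 20.7, 3.48 and 13.9 normalized counts in WT replicates 1 to 4, at 47.0, 16.3, 31.4 and 1.35 in ASH1L/+, at 19.5, 25.3, 18.7 and 8.33 in WDFY3/+, at 28.9, 152, 57.0 and 40.6 in CHD2/+, and at 28.9, 6.62, 14.6 and 9.17 in CHD8/+. Every CHD2/+ library lay above every WT library, the closest pair being 28.9 against 28.4 normalized counts. Def was the only tested member whose groups did not overlap in a comparison with WT, and 3.39% of all genes tested lay wholly above WT in CHD2/+. Its log2 fold change in CHD2/+ was 2.0 (95% interval 0.38 to 3.63, unadjusted p = 0.018, adjusted p = 0.63 from limma by the Benjamini-Hochberg method). Elsewhere Def was at 0.14 in ASH1L/+, 0.30 in WDFY3/+ and -0.06 in CHD8/+ on the same scale (standard error 0.78).

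**Figure D2:**
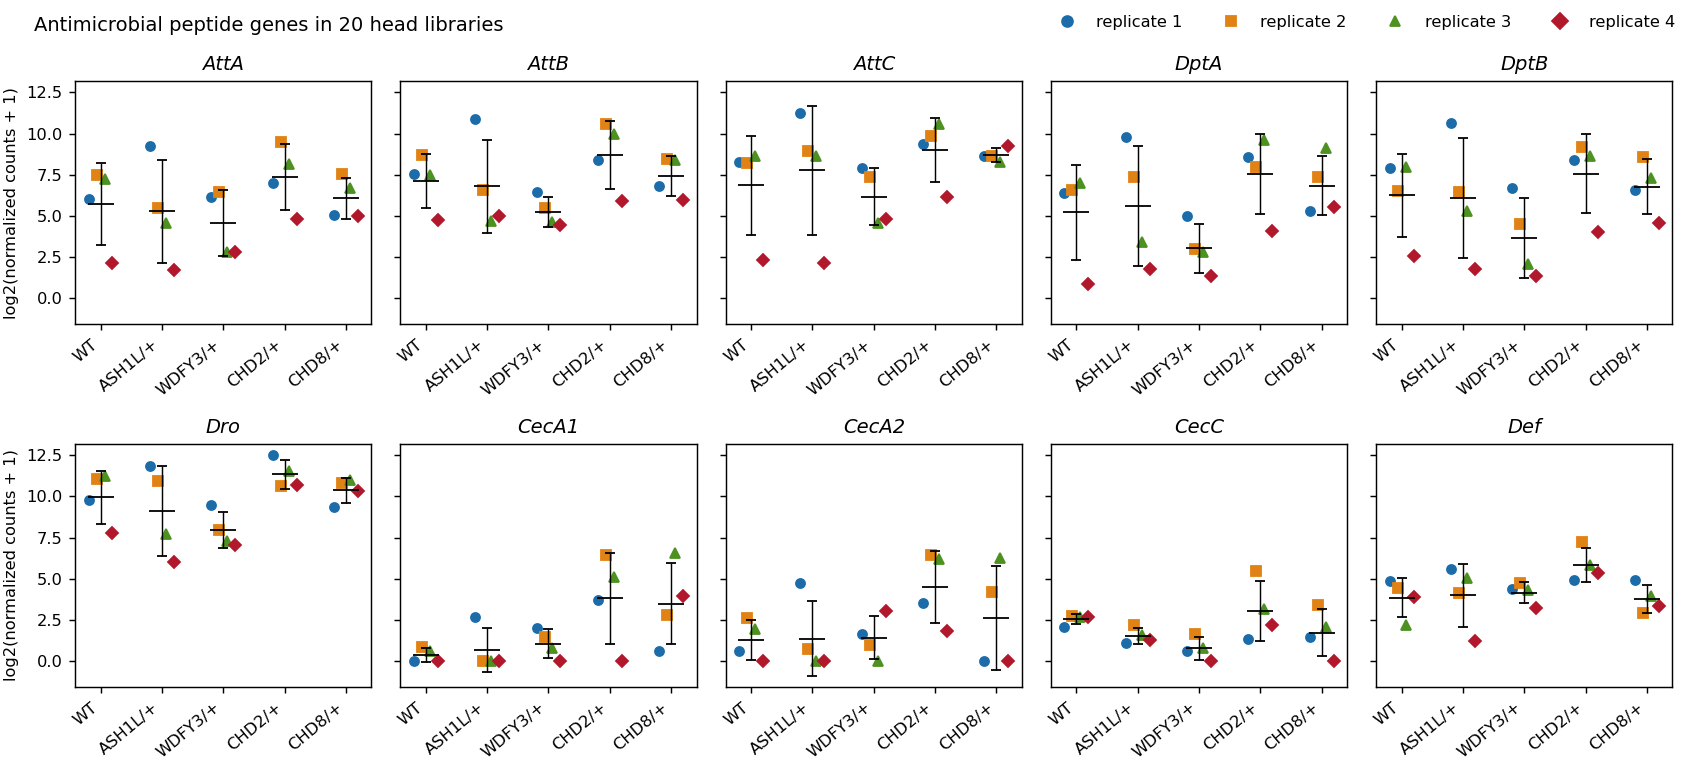
Level of each gene, as log2(normalized counts + 1), in the 4 libraries of each of 5 genotypes; symbols mark the replicate number, the dash is the mean and the bars are 1 SD (n = 4). DptB is lowest in replicate 4 in every genotype, from 1.6 to 23.2 normalized counts.

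Each mutant was compared with WT to ask whether these genes differ with the mutation. The tests were made with limma over all 9588 genes that passed the filter, 9 members among them. Calls needed both 1.5-fold or more and an adjusted p below 0.05. Standard errors, intervals and p values are of the fit without replicate number unless a block is named. In CHD2/+, all 9 tested members had a log2 fold change above 0, between 1.33 for DptB and 3.45 for CecA1, with a median of 2.0 against -0.02 over all genes, where 48.4% were above 0. None of the 9 was called, against 0.188% of all genes. CecA1 (unadjusted p = 0.011), Def (0.018) and CecA2 (0.032) had unadjusted p under 0.05, as had 6.93% of all genes, and the smallest adjusted p was 0.56. CecA1 entered the tests only, and CecA2 mainly, through CHD2/+ and CHD8/+ libraries. With 10 normalized counts asked for in 10 libraries, which left 7 members, only Def had an unadjusted p under 0.05 (median 1.63). The share of all genes under this stricter filter is not given here. With the number of the replicate as a block, 0 members were called (1.21% of all genes) and 4 of 9 had an unadjusted p under 0.05, against 18.8% of all genes.

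The median of the members in CHD2/+ was 0.80 without WT replicate 4, the low WT library, against 2.0 with it. All 9 changes stayed above 0 when any single library was left out. The number with an unadjusted p under 0.05 went from 0 without CHD2/+ replicate 2 to 5 without CHD2/+ replicate 4. The share of all genes is not given for these fits, so the counts show only their dependence on single libraries.

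In WDFY3/+, 6 of the 9 tested members had a log2 fold change below 0, and these were the attacins, the diptericins and Dro, from -2.57 for DptB to -0.68 for AttC. CecA1, CecA2 and Def were at 0.71, 0.13 and 0.30, and CecA1 was near or under 3 reads in all libraries of WDFY3/+ and WT. The median of the members was -1.16 against 0.01 over all genes, of which 51.3% were above 0. None was called, against 0.0521% of all genes, and none had an unadjusted p under 0.05, against 3.26%. The smallest was that of Dro (unadjusted p = 0.057, adjusted p = 1.00 from limma). WDFY3/+ and WT libraries of the same number deviated together, and with the number as a block 3 of 9 members had an unadjusted p under 0.05, against 7.41% of all genes: DptB (0.0090), Dro (0.025) and AttB (0.049), each lower in WDFY3/+ in 4 of 4 same-numbered pairs. None was called with the block (0.25% of all genes), and the smallest adjusted p was 0.51 from limma. Without WT replicate 4 the median was -2.36, and without WT replicate 2 it was -0.58.

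In CHD8/+, 8 of the 9 tested members were above 0, with a median of 0.52 against -0.01 over all genes, of which 48.8% were above 0. CecA1 alone had an unadjusted p under 0.05 (unadjusted p = 0.020 and adjusted p = 1.00 from limma), against 3.74% of all genes. None was called, against 0.271% of all genes. CecA1 entered the tests only through CHD2/+ and CHD8/+ libraries and dropped out under the stricter filter. None of the 7 members left had an unadjusted p under 0.05. With the replicate block 1 member, again CecA1, had an unadjusted p under 0.05 (9.27% of all genes) and 0 were called (0.741%). The median was -0.04 without WT replicate 4 and was 1.24 without CHD8/+ replicate 4, so its direction rested on single libraries.

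In ASH1L/+, 5 of the 9 tested members were above 0 and 4 below, between -0.82 for Dro and 0.91 for AttC. The median was 0.07 against 0.03 over all genes, of which 53.3% were above 0. None was called (0.0939% of all genes) and none had an unadjusted p under 0.05 (2.61% of all genes), and with the replicate block both counts were again 0 (0.209% and 6.22% of all genes). The median was -1.06 without WT replicate 4 and 0.72 without ASH1L/+ replicate 4, and the direction of each of the 9 members turned when some single library was left out. The median standard error of the members' log2 fold changes was 1.39, against 0.436 over all genes.

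**Figure D3:**
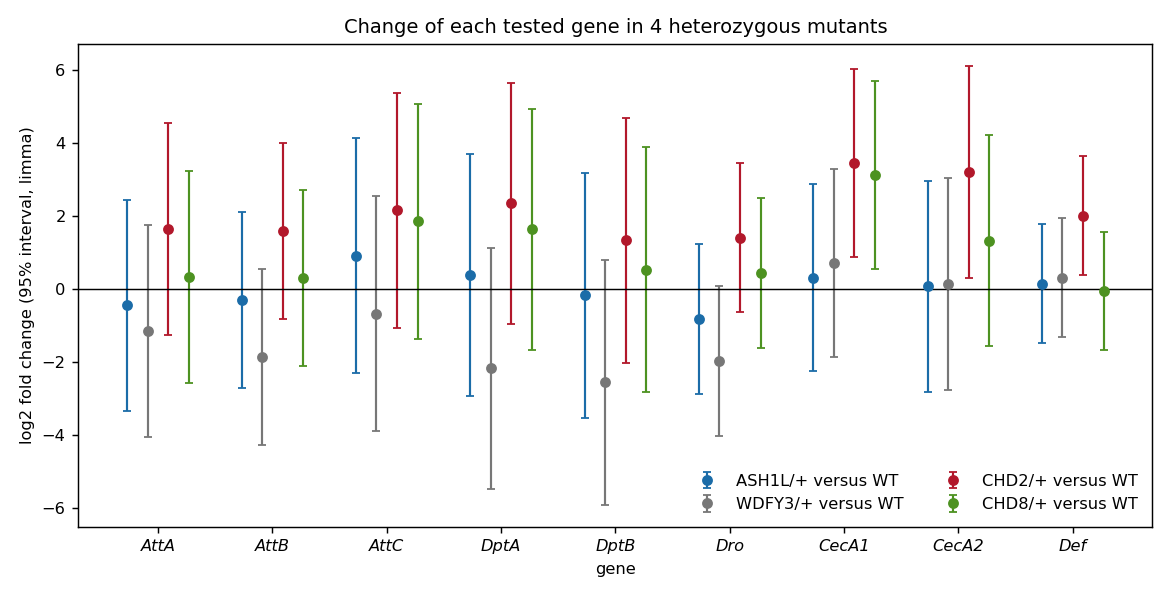
Log2 fold change against WT (vertical axis) of the 9 tested genes in the 4 single heterozygotes, with 95% intervals from limma without replicate block. The line marks 0. All 9 points of CHD2/+ lie above 0 and 6 points of WDFY3/+ lie below it, while only the intervals of CecA1, CecA2 and Def in CHD2/+ and of CecA1 in CHD8/+ leave out 0.

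The same model gave the 6 differences between mutants. Their sizes use no WT library, but the estimate of spread behind their p values includes WT. WDFY3/+ and CHD2/+ stood farthest apart: all 9 tested members were lower in WDFY3/+ (47.8% of all genes were above 0), with a median log2 difference of -3.08 and a range from -4.52 for DptA to -1.70 for Def, against a median of -0.04 over all genes. None of the 9 was called, against 0.073% of all genes. The unadjusted p was under 0.05 for 7 of 9 members, against 8.87% of all genes, and the smallest was that of Dro (log2 difference -3.38, unadjusted p = 0.0026, adjusted p = 0.50 from limma). Among the 7 were CecA1 and CecA2, which had passed the filter only (CecA1) or mainly (CecA2) through CHD2/+ and CHD8/+ libraries. Dro and Def were lower in every WDFY3/+ library than in every CHD2/+ library, which held for 1.85% of all genes. All 9 differences stayed below 0 when any single library was left out, and the number of members with an unadjusted p under 0.05 then ran from 3 to 9. It was 3 without WDFY3/+ replicate 3, CHD2/+ replicate 2 or CHD2/+ replicate 3, and 4 without WDFY3/+ replicate 4. No share of all genes is given for these fits, so the counts show only their dependence on single libraries. The smallest adjusted p over all comparisons and alternatives was also in this pair, 0.070 for DptA with the replicate block in limma, and the smallest adjusted p of the pairs ranged up to 0.98 over the alternatives.

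WDFY3/+ also lay below CHD8/+ in 8 of the 9 members (median log2 difference -2.41, with 49.1% of all genes above 0), and AttC and DptA were lower in every WDFY3/+ library, as were 1.41% of all genes. None was called (0.0417% of all genes) and 2 had an unadjusted p under 0.05 (4.74% of all genes). ASH1L/+ lay below CHD2/+ in all 9 (median -1.96, with 51.2% of all genes above 0), with 0 called (0.0% of all genes) and 4 with an unadjusted p under 0.05 (6.34%). The 4 were CecA1, CecA2, Def and Dro. CHD2/+ lay above CHD8/+ in all 9 (median 0.97, with 47.7% of all genes above 0), with 0 called (0.0104%) and 1 with an unadjusted p under 0.05 (4.42%). That member was Def, which was higher in each CHD2/+ library than in each CHD8/+ library, as were 1.8% of all genes. ASH1L/+ had 0 members called against WDFY3/+ (0.0313%) and against CHD8/+ (0.0209%), with 0 and 1 members at an unadjusted p under 0.05 (2.65% and 4.18%). The 1 member was CecA1, which passed the filter only through CHD2/+ and CHD8/+ libraries. With the replicate block, 9 members had an unadjusted p under 0.05 between WDFY3/+ and CHD2/+ (21.3% of all genes). There were 6 between WDFY3/+ and CHD8/+ (12.4%) and 6 between ASH1L/+ and CHD2/+ (18.8%). ASH1L/+ had 2 against WDFY3/+ (5.61%) and 1 against CHD8/+ (11.1%), and CHD2/+ had 1 against CHD8/+ (10.9%). None was called with the block. These counts include CecA1 in every pair of CHD2/+ or CHD8/+ with ASH1L/+ or WDFY3/+. An F test over the 5 genotypes called 0 of 9 members (0.313% of all genes). In it CecA1 and Dro had unadjusted p under 0.05 (0.025 and 0.028), as had 4.95% of all genes, and the smallest adjusted p was 0.82 from limma. Of these 2, CecA1 had passed the filter only through CHD2/+ and CHD8/+ libraries. With the replicate block the smallest adjusted p of a member in the F test was 0.13 from limma.

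Within a genotype, the 9 tested members varied more than most genes. The median SD between libraries of one genotype was 2.14 on the log2 scale for the members and 0.627 for all genes tested. It was largest for DptB (2.61), DptA (2.57), AttC (2.5) and AttA (2.25), and smallest for Dro (1.58) and Def (1.21), the latter at the 89.9th percentile of all genes and DptB at the 99.6th. CecA1 (1.81) and CecA2 (2.14) lie among genes of low level, where a large SD is common. For the attacins, the diptericins and Dro, the highest library of a genotype exceeded the lowest by 56.1-fold to 702-fold in ASH1L/+, 11.0-fold to 152-fold in WT, 4.05-fold to 65.7-fold in WDFY3/+, 3.70-fold to 48.5-fold in CHD2/+ and 1.99-fold to 16.4-fold in CHD8/+.

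**Figure D4:**
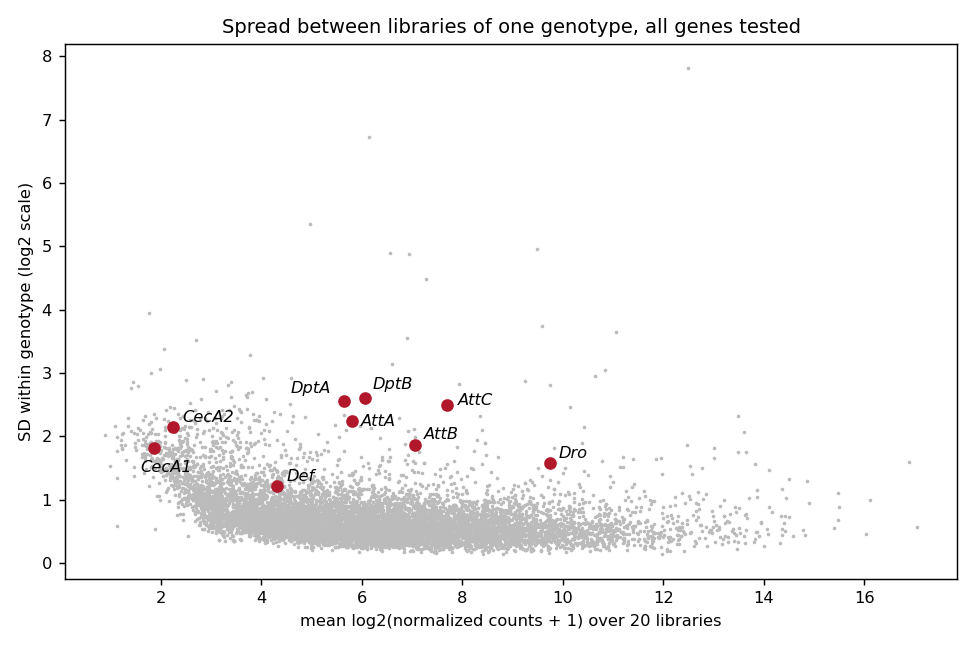
SD between libraries of one genotype (vertical axis, log2 scale) against the mean level over 20 libraries (horizontal axis, log2(normalized counts + 1)) for the 9588 genes tested (grey) and the 9 tested members (red). The members lie between 1.21 (Def) and 2.61 (DptB), and all but the 2 low cecropins stand above most genes of their own level.

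The same libraries were extreme for most members. ASH1L/+ replicate 1 was the highest of its genotype for all 9 tested members, and ASH1L/+ replicate 4 was the lowest for 8. WT replicate 4 was the lowest for 8 of 9, and the replicate 4 libraries of WDFY3/+ and of CHD2/+ were each the lowest for 7. In CHD8/+ replicates 1 and 4 were each the lowest for 4. Genotype held a median of 32.0% of the variance of a member, replicate number 32.7% and the rest 35.3%, against 18.5%, 39.5% and 37.4% over all genes. Whether the replicate numbers stand for a day or a batch is not stated.

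Across the 20 libraries, which share genotypes, replicate numbers and depth, the attacins, the diptericins and Dro moved together: their 15 pairs had Pearson correlations of 0.75 to 0.93 (median 0.88) on the log2 scale. The median was also 0.88 after the mean of each genotype was removed. The highest was AttA with DptB, at 0.93, although these 2 genes are not neighbours. CecA1 and CecA2 correlated with each other at 0.79 and with the other members at 0.39 to 0.80. Def stood apart, at 0.38 to 0.54 with the other 8. The median over all 36 pairs was 0.71.

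Outside the members, the genes whose log2 level most resembled the mean of the standardized members over the 20 libraries were CG4744 (Pearson correlation 0.78), BORCS7 (0.78), eRF1, the translation release factor (0.78), CG10343 (0.77), Polr1E (0.76), GNBP-like3 (0.75), CG1208 (0.75), Sh3beta (0.75), CG11555 (0.74) and CG10802 (0.73). None of these 10 genes was called in any mutant by the main fit. The members themselves, which are part of that mean, ranged from 0.60 for Def to 0.95 for AttA.

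Genes that act around the peptides were examined as lists. No gene of the 6 immune lists was called in any of the 4 mutants by the main fit, which has no replicate block. Of the other antimicrobial peptide genes, 5 of the 13 measured were tested. Mtk, which encodes the antifungal and antibacterial peptide metchnikowin, stood at 171, 77.7, 178 and 0 normalized counts in WT, at 529, 214, 66.9 and 24.0 in ASH1L/+, at 42.6, 36.4, 18.7 and 28.3 in WDFY3/+, at 491, 309, 580.4 and 173 in CHD2/+, and at 59.1, 88.2, 0 and 5.24 in CHD8/+. In CHD2/+, 3 of 4 libraries lay above the WT range, and the CHD8/+ libraries were low. The log2 fold change in CHD2/+ was 3.16 (standard error 1.42, unadjusted p = 0.038, adjusted p = 0.68 from limma). All 5 tested genes of this list were above 0 in CHD2/+ (median 0.74), with BaraA1, a baramicin gene, at 0.74 and Listericin at 0.64. In WDFY3/+ 2 of the 5 were above 0 (median -0.17).

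The receptors and signalling genes of the Imd pathway (16 of 16 tested) showed no like shift between genotypes. Across the 20 libraries, these genes had Pearson correlations of -0.48 to 0.57 with the mean of the members (median 0.31, against 0.05 over all genes). Their median log2 fold changes, in the order ASH1L/+, WDFY3/+, CHD2/+ and CHD8/+, were -0.13, 0.00, -0.01 and 0.09, with 3, 0, 2 and 0 genes at an unadjusted p under 0.05. The shares of all genes at such a p were 2.61%, 3.26%, 6.93% and 3.74% in this order, and they apply to each list below. PGRP-LC, the membrane receptor for peptidoglycan, was at -0.70 in ASH1L/+ and -0.70 in CHD2/+ (standard error 0.30). Fadd, the adaptor that binds the caspase Dredd, was at 1.25 in CHD2/+ (standard error 0.48, adjusted p = 0.60 from limma), and Dredd was at 1.02 in ASH1L/+ (adjusted p = 1.00). Of 7 tested inhibitors of the pathway, 0 to 1 had an unadjusted p under 0.05 in each mutant. The inhibitors correlated with the mean of the members at -0.01 to 0.69 (median 0.24), where 0.63 was the 99th percentile of all genes. PGRP-LF, a receptor relative that blocks PGRP-LC, was at -1.21 in ASH1L/+, and PGRP-SC2, a secreted amidase that digests peptidoglycan, was at 1.79 in CHD8/+ (adjusted p = 1.00 from limma for both).

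Of the 17 Toll pathway genes, 1, 1, 3 and 1 had an unadjusted p under 0.05 in the 4 mutants in the same order, and the medians were -0.09, -0.09, -0.01 and -0.16. GNBP3, a receptor for fungal glucans, was at -1.20 in CHD2/+ (adjusted p = 0.37 from limma), and Dif, the NF-κB factor of adult Toll signalling, was at -0.56 in ASH1L/+ (adjusted p = 1.00). The protease gene grass, which acts upstream of Toll, was at 1.35 in CHD8/+ (adjusted p = 0.44 from limma), and with the replicate block its adjusted p was 0.028. With the block grass thus met the rule for a call. Among the Bomanins and other Toll-induced peptides, 13 of 16 measured genes were tested, and the medians in that order were -0.35, -0.71, -0.23 and -0.01, with 1, 2, 1 and 0 genes at an unadjusted p under 0.05. BomBc1 was at -1.43 in ASH1L/+ and -1.26 in WDFY3/+, and Dso1, an antifungal daisho peptide gene, at -1.37 in CHD2/+ (adjusted p = 0.57 from limma). Of the 10 tested genes of JAK-STAT signalling and the Turandot stress peptides, 1, 1, 0 and 0 had an unadjusted p under 0.05, and the kinase gene hop was at 0.61 in ASH1L/+ and 0.64 in WDFY3/+.

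Markers of the cells that could carry these RNAs were summed per library. The fat body markers (8 of 9 measured, none at 0 throughout a genotype) summed to 73137 to 395685 normalized counts in WT, 98242 to 243783 in WDFY3/+ and 106136 to 310673 in CHD2/+, and overlapped in all genotypes. Their mean log2 level had a Pearson correlation of 0.15 with the mean of the members over the 20 libraries, and that of the haemocyte markers (8 of 9 measured, summed to 823 to 2172) had 0.06. The cuticle markers (12 of 12 measured) had 0.51, the neuron markers -0.44, the photoreceptor markers -0.38 and the estimated number of reads 0.27. The cuticle markers summed to 488 to 1062 normalized counts in all libraries but 4, which were CHD2/+ replicate 2 at 2695 and CHD8/+ replicates 2, 3 and 4 at 2508, 5764 and 2656. CHD2/+ replicate 2 and CHD8/+ replicate 3 were also the libraries with the most CecA1 in their genotypes. All 8 tested cuticle genes had a log2 fold change above 0 in CHD2/+ (median 0.68) and in CHD8/+ (median 1.72), with 0 and 6 at an unadjusted p under 0.05 (6.93% and 3.74% of all genes). In CHD8/+ Cpr49Ae, a cuticle protein gene, was at 1.92 (adjusted p = 0.24 from limma, and 0.0060 with the replicate block). In the same mutant kkv, a chitin synthase gene, was at 3.34 (adjusted p = 0.42 from limma, and 0.046 with the block). The gene kkv, which is among the 6 counted for CHD8/+, passed the filter only through CHD2/+ and CHD8/+ libraries. In WT kkv stood at 0 to 4.64 normalized counts, near or under the level of 3 reads, so the size of its change is uncertain. All 5 neuron genes were below 0 in CHD2/+ (median -0.78). Of the 8 tested haemocyte genes, 2 had an unadjusted p under 0.05 in CHD8/+ (median 0.27), against 3.74% of all genes, and they lay in opposite directions. NimC1, a phagocytosis receptor, was at 2.65 there (adjusted p = 0.073 from limma, and 0.020 with the replicate block). It was at 1.90 in ASH1L/+, at 2.13 in CHD2/+ and at -1.20 in WDFY3/+. The filter was passed by NimC1 only through libraries of ASH1L/+, CHD2/+ and CHD8/+. NimC1 stood at 2.62 to 8.95 normalized counts in WT and at 0 to 5.35 in WDFY3/+. These values lie around the worth of 3 reads (1.90 to 5.83), so the sizes of its changes are uncertain. PPO2, a prophenoloxidase of crystal cells, was at -2.06 in CHD8/+ (adjusted p = 1.00 from limma). The part of these cell types in the members' values was not tested.

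The double heterozygote was set beside CHD8/+ and WT only as a share of the library total, since its table was scaled apart, and nothing was tested across the tables. In its replicates 1 to 3, Dro took 379, 9.02 and 15.2 ppm, against 128 to 430.2 in CHD8/+ and 53.3 to 496 in WT. DptB took 284, 1.86 and 1.90 ppm, against 4.52 to 90.4 in CHD8/+, and DptA took 49.3, 0.53 and 2.0 against 7.74 to 97.8. Replicate 1 was thus far above the other 2 libraries, which lay below every CHD8/+ library for these genes.

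AttA took 197, 2.41 and 10.2 ppm in the double heterozygote and 6.06 to 43.5 in CHD8/+. AttB took 94.2, 6.93 and 9.92 (12.3 to 82 in CHD8/+), and AttC 74.8, 4.02 and 17.5 (53.5 to 119 in CHD8/+). Over the 10 members, replicates 2 and 3 both lay below every CHD8/+ library for 5, which were AttB, AttC, DptA, DptB and Dro, against 9.78% of the 12476 genes listed in both tables. CecA1 took 70.7, 0.56 and 0.58 ppm (0.11 to 16.1 in CHD8/+), CecA2 62.4, 0.27 and 0.71 (0 to 13.1), and CecC 8.04, 0 and 0.75 (0 to 2.25). In replicate 1 each cecropin lay above all libraries of CHD8/+ and WT. Def took 56.2, 18.4 and 2.02 ppm, and was the only member with 2 libraries above the CHD8/+ range of 1.57 to 5.75.

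Replicate 1 exceeded the next library of the double heterozygote by 3.06-fold (Def) to 149-fold (DptB), with a median of 22.0-fold, and lay above every CHD8/+ library for 7 of the 10 members, against 36.6% of the genes in both tables. The summed share of the 10 members was 1275, 44.0 and 60.7 ppm. The log2 ratio of the mean summed share to that of CHD8/+ was -0.20 (pooled SD of the log2 sums 1.78) and to that of WT -0.05 (pooled SD 2.11), which is less than the spread between libraries. Relative to RpL32, a ribosomal protein gene, in place of the library total the ratios were -2.0 and -1.61. Without replicate 1 the ratios of the share of the library total were -3.33 to CHD8/+ and -3.19 to WT.

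**Figure D5:**
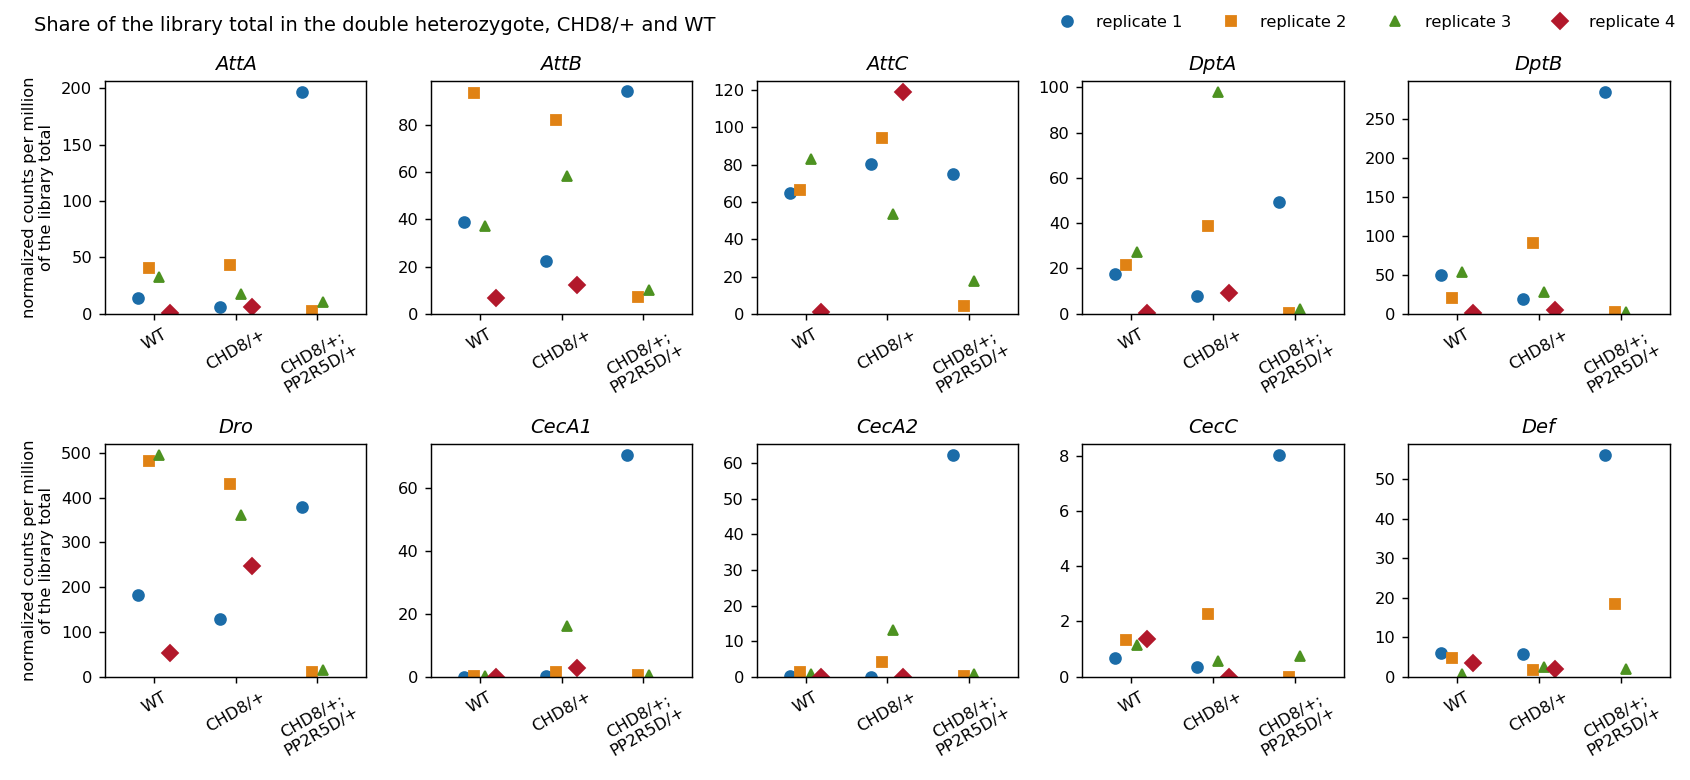
Share of each gene in ppm of the library total (linear vertical axes from 0, one scale per gene) in 4 libraries of WT, 4 of CHD8/+ and 3 of the double heterozygote; symbols mark the replicate number. Replicate 1 of the double heterozygote stands above its 2 other libraries for every gene, at 379 against 9.02 and 15.2 ppm for Dro.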

How the data were processed

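The authors made libraries with a 3′ mRNA-seq kit, read them as single ends, assigned reads to BDGP6 transcripts with Salmon 0.12.0 and deposited normalized counts (signal values) from DESeq2, with a batch term in their model whose levels are not given in the sources used here. The values are not whole numbers, so no count model was used. Symbols were matched for 17253 of 17559 and 12526 of 12623 genes, and annotation came from Ensembl. All sample columns were used.

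After 1 was added, values were taken to the log2 scale, on which changes of low genes are understated. Genes at 10 or more in 4 or more of 20 libraries were fitted with limma 3.58.1 (R 4.3.3, trend, 1 mean per genotype), with Benjamini-Hochberg adjustment in each comparison. The fit was tested on simulated data. Names follow a rule: all members, of each list up to 3 genes with the smallest p, and the 10 most similar genes, of which the text gives a part. The members and lists were chosen with earlier results of these data known. Same-numbered libraries counted as paired where the correlation of their deviations from the group means exceeded 0.1 for every pair with WT: ASH1L/+ (0.34 to 0.78), WDFY3/+ (0.32 to 0.74) and CHD8/+ (0.21 to 0.73) were paired and CHD2/+ (0.07 to 0.46) was not. The PP2R5D/+ single heterozygote was not analysed here. Alternatives were other filters, added values, normalizations and models, and leaving out each library. Python 3.11.15 (numpy 2.4.6, pandas 2.3.3, matplotlib 3.10.9) drew the figures.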

Additional observations from a re-analysis of the deposited data

Results flagged for a closer look

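Among the 50 groups of 4 libraries (10 genes in 5 genotypes), 8 held a library whose gap to its nearest neighbour took up more of the range of the group than the 95% critical value of Dixon's test for 4 values allows. Chance flags about 1 in 20 groups of normally distributed values, and since linear counts are skewed and several groups are mostly near 0, the number found cannot be read against that rate. In ASH1L/+ replicate 1 this was so for 5 genes: AttA at 615, AttB at 1876, DptB at 1604, CecA1 at 5.32 and CecA2 at 25.3 normalized counts, each the highest of its genotype. CecA1 at 92.4 normalized counts in CHD8/+ replicate 3 and CecC at 43.7 in CHD2/+ replicate 2 were the highest of theirs. CecC at 3.25 normalized counts in WT replicate 1 was the lowest of a narrow group. These genes move together, so the flags are not independent of each other.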

How the results depend on the processing

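No member was called in any comparison under any of 29 alternatives (other filters, values added, quantile normalization, 2-group fits, no trend, robust fit, replicate block, each library left out), and the smallest adjusted p from limma ranged from 0.95 to 1.00 in ASH1L/+, 0.51 to 1.00 in WDFY3/+, 0.14 to 0.97 in CHD2/+ and 0.25 to 1.00 in CHD8/+. With the replicate block the smallest adjusted p was 0.95, 0.51, 0.14 and 0.35 in this order, and 0, 3, 4 and 1 members had an unadjusted p under 0.05 (6.22%, 7.41%, 18.8% and 9.27% of all genes). The block changed no call of a member. The planned TMM scaling was not used, since its tool models raw counts. Over the 17 alternatives of each comparison with WT, all 9 members kept their direction in CHD2/+, 7 in WDFY3/+, 4 in CHD8/+ and none in ASH1L/+. Apart from left-out libraries, only CecA2 turned: to -0.10 in ASH1L/+ with 0.5 added, and to -0.047 in WDFY3/+ with quantile normalization. The turns are of log2 fold changes smaller than their standard errors, and the cause was not tested. With each library left out, the log2 fold changes in ASH1L/+ ranged from -1.78 to 0.72 (AttA), -1.67 to 0.38 (AttB), -0.59 to 2.78 (AttC), -1.06 to 1.65 (DptA), -1.71 to 1.23 (DptB), -1.73 to 0.20 (Dro), -0.36 to 0.53 (CecA1), -1.05 to 0.52 (CecA2) and -0.42 to 1.06 (Def). In WDFY3/+ they ranged from -0.41 to 0.61 (CecA2) and -0.26 to 0.65 (Def). In CHD8/+ they ranged from -0.62 to 0.28 (Def), -0.30 to 0.85 (Dro), -0.87 to 0.91 (AttA), -0.70 to 1.24 (DptB) and -0.49 to 0.82 (AttB). For the double heterozygote, the log2 ratio to CHD8/+ was -2.0 relative to RpL32, and with each library left out it ranged from -3.33 to 0.34, and that to WT from -3.19 to 0.49. The cecropins were near the limit of detection in WT, as set from the estimated depth, so their changes cannot be sized. Without the filter, CecC was at -1.78 in WDFY3/+ (unadjusted p = 0.029, adjusted p = 1.00 from limma).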

Other observations

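Of the other antimicrobial peptide genes, 8 were measured but lay under the filter. CecB, a cecropin outside the members, was at 68.7 normalized counts in CHD2/+ replicate 2 and at 7.58 or less in the other 19 libraries, so the library with the most CecC and, in its genotype, the most CecA1 and CecA2 was also the one with the most CecB. AttD, an attacin that lacks a secretion signal, was at 9.27 normalized counts in the same library and at 4.70 or less elsewhere. The drosomycin-like genes Drsl4 and Drsl5 were highest among the WT libraries in replicate 4, at 825 and 1811 normalized counts, the library in which 8 of the 9 tested members were lowest. They were also high in CHD8/+ replicate 3 (2095 and 1359 normalized counts) and CHD2/+ replicate 3 (1661 and 1528), in which several members were high as well.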
